A study of Homo sapiens with 6 samples.

Results

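The genes described here encode the sterol regulatory element-binding proteins (SREBPs) and the proteins that hold, carry and cleave them. They are 7 genes of the 31368 in the expression table, chosen by gene name: SREBF1, SREBF2, SCAP, INSIG1, INSIG2, MBTPS1 and MBTPS2. The measurements are poly-A-selected RNA-seq of CAL27, a human line established from a tongue squamous carcinoma. One group of 3 libraries came from untreated cells, and the other of 3 from cells of the same line kept in 10 mM lactate for 24 h. No other agent or allele is labelled in either group. The sources used here do not give the form of the lactate, the medium or its pH, nor do they state whether the 3 libraries of a group were separate cultures, so the spread between them may be technical.

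SREBPs are transcription factors made as precursors in the membrane of the endoplasmic reticulum (ER), where they are bound to SCAP, a sterol-sensing escort protein. When ER cholesterol is high, the INSIG proteins hold the SCAP and SREBP complex in the ER. When it is low, the complex moves to the Golgi, where site-1 protease (gene MBTPS1) and then site-2 protease (gene MBTPS2) release the part that enters the nucleus. SREBF1 encodes SREBP-1a and SREBP-1c, of which SREBP-1c acts mainly on genes of fatty acid synthesis. SREBF2 encodes SREBP-2, which acts mainly on genes of cholesterol synthesis and uptake. INSIG1 is itself a target of SREBPs, which gives a negative feedback, and both SREBF genes respond to their own products. All values here are mRNA levels, so nothing was measured of precursor cleavage or of nuclear SREBP.

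In lactate, SREBF1 and INSIG1 mRNA stood at 0.538 and 0.547 of their untreated levels and SREBF2 was lower by less, while INSIG2 and MBTPS2 stood at 1.34 and 1.33 times theirs. SCAP was 4.20% lower and MBTPS1 4.45% higher. The 7 genes were put together with the changes of this same comparison known, those of INSIG1 and SREBF1 above all, so their fold changes are given as a description with no p-value. Levels are FPKM, fragments scaled to gene length and to a denominator per library. That denominator followed median-ratio size factors and not the read total. The length used was close to that of all annotated exons of a gene joined, which may exceed that of the transcripts present. Comparisons of level between genes are therefore of FPKM and only approximate for mRNA. Each log2 fold change is the lactate minus the untreated mean of log2(FPKM + 1), with the standard error (SE) of the limma fit over 11792 genes, and ± is the SD over 3 libraries. In that fit 3 of the 7 genes passed as lower, 2 as higher and 2 did not pass at a Benjamini-Hochberg adjusted p under 0.05. Of all genes tested 58.6% passed, 30.9% as lower and 27.7% as higher, so a call in itself sets no gene apart here. The median log2 fold change was -0.051 over the 7 genes and -0.016 over all tested genes, and the median absolute value was 0.29 against 0.16. When each library was scaled to its read total instead, the split over all tested genes was 4162 higher and 2579 lower in place of 3265 and 3649. With the dependence on GC content and length taken out, MBTPS2 (log2 fold change 0.088) did not pass, while INSIG2 (0.24) and MBTPS1 (0.067) passed. Values of the 2 groups did not overlap for 6 of the 7 genes, 3 lower and 3 higher in lactate, which was so for 65.5% of all tested genes, 34.2% lower and 31.4% higher.

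The denominators behind the FPKM values were 25163374 to 40220226 per library, where the recovered read totals were 25895115 to 39509993. The 7 genes had 461 to 5436 reads each per library. All 7 were above 1 FPKM in every library. The squamous identity of the cells was checked on 10 epithelial markers, all detected at 1 FPKM or more in some library, with summed levels of 1147 to 1165 FPKM in untreated and 1159 to 1178 FPKM in lactate libraries. Much of that sum was SFN (602 to 598 FPKM), while KRT14 was low (2.02 to 2.83 FPKM). A steady sum thus says little of the less abundant markers. Single markers moved within that sum, 6 higher and 2 lower in the fit, such as KRT5 (155 to 118 FPKM) and KRT17 (108 to 136 FPKM), chosen after their values were seen. Their part in the results was not tested. Of 10 markers of blood, endothelial, fibroblast and pigment cells, 9 were listed. Of these, 0 were at exactly 0 in every library and 0 reached 1 FPKM in any. Their summed levels were 0.548 to 0.775 FPKM in untreated and 0.771 to 0.830 FPKM in lactate libraries.

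The sequences just before the start sites of 4 of the genes are shown because these are the SREBP and INSIG pairs, in which the paralogs differed. They are the 250 bases before the RefSeq start on GRCh38.p14, in the direction of transcription. SREBF1 is chr17:17836987-17837236 (minus strand), SREBF2 is chr22:41832855-41833104 (plus strand), INSIG1 is chr7:155297628-155297877 (plus strand) and INSIG2, at the first of its 2 listed starts, is chr2:118088221-118088470 (plus strand). Capitals mark matches on either strand to TCACNCCAC (a form of the sterol response element), CCAAT (the core bound by NF-Y), GGGCGG (the GC box bound by SP1) and CACGTG (an E-box).

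SREBF1: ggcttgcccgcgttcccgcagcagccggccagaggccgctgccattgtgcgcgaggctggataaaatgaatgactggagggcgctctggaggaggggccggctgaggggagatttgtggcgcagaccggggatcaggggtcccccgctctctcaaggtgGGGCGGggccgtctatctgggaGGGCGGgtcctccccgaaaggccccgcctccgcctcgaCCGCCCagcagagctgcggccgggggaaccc

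SREBF2: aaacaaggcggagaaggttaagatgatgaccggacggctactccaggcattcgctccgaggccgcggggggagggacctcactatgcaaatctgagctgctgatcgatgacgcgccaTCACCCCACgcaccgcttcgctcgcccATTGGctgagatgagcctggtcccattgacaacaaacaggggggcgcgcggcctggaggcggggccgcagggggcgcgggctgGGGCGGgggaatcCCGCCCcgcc

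INSIG1: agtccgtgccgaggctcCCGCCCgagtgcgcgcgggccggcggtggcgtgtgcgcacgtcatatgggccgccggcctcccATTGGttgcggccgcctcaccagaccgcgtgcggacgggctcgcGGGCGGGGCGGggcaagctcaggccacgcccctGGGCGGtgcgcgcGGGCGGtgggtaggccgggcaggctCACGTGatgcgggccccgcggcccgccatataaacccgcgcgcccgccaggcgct

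INSIG2: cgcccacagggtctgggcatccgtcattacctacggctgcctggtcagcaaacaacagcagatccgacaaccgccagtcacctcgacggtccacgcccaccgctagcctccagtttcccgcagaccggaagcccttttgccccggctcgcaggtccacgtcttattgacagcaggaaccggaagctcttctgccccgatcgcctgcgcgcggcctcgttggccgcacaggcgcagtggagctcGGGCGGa

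The SREBF2 window held 1 match to the sterol response element, TCACCCCAC, starting 133 bases before the start, with an inverted CCAAT 106 bases before it. Only 0.883% of all 35116 promoter windows of that length held such a sterol element, while 32.0% held CCAAT, 42.6% a GC box and 6.34% the E-box. The INSIG1 window held no TCACNCCAC, 1 inverted CCAAT at 170 bases, an E-box at 55 bases and 5 GC boxes, of which those at 126 and 121 bases share a base. The SREBF1 window held 3 GC boxes and none of the other 3 motifs, and the INSIG2 window 1 GC box. Neither the MBTPS1 nor the MBTPS2 window held any of the 4 motifs, and the SCAP window held 3 GC boxes and an E-box at 58 bases. A match is a string of letters and not a measured binding site, and RefSeq lists 1 window for SREBF1 although the gene has many annotated starts. Annotated starts also differ between sources: the GENCODE 29 gene start lies inside each of the 4 windows shown. The GC boxes of SREBF2 and INSIG2 and the E-box of INSIG1, with its GC boxes at 93 and 80 bases, lie past that start.

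SREBF1 (ENSG00000072310, chromosome 17, 17810399 to 17837002 in GRCh38, minus strand) stood at 10.4, 11.9 and 10.9 FPKM in untreated replicates 1 to 3 and at 5.76, 6.26 and 5.85 FPKM in lactate replicates 1 to 3. The lowest untreated library was well above the highest lactate library, and single lactate to untreated ratios ran from 0.486 to 0.603. The means were 11.1 ± 0.748 and 5.96 ± 0.263 FPKM (n = 3 each), a drop of 46.2%, with a log2 fold change of -0.79 (SE 0.051). The FPKM sums over 23 annotated transcripts, so SREBP-1a and SREBP-1c cannot be told apart. Exons of RAI1, on the opposite strand, overlap those of SREBF1 by 556 nt, and the sources used here do not say whether counting used strand. RAI1 itself went from 4.40 ± 0.134 to 4.12 ± 0.282 FPKM (log2 fold change -0.077, limma adjusted p = 0.191). In RNA from a whole culture, fewer cells with a transcript and less of it per cell cannot be told apart.

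SREBF2 (ENSG00000198911, chromosome 22, 41833079 to 41907308, plus strand) had the highest FPKM of the 7 in both groups. It stood at 20.2, 20.7 and 21.6 FPKM in untreated and at 17.5, 18.4 and 17.5 FPKM in lactate libraries. The groups did not overlap, but the gap was narrower than for SREBF1: the means were 20.8 ± 0.715 and 17.8 ± 0.494 FPKM, a drop of 14.6%, with a log2 fold change of -0.22 (SE 0.033). Exons of SREBF2-AS1 on the opposite strand overlap it by 280 nt, and that transcript stayed under 0.141 FPKM in each library. Both SREBF genes hold a miR-33 gene in an intron, MIR33B in SREBF1 and MIR33A in SREBF2, which were not analysed here.

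Since both SREBF genes were lower but not by the same fraction, the make-up of the pair differed between groups. SREBF1 gave 34.0%, 36.4% and 33.6% of the summed SREBF1 and SREBF2 FPKM in untreated libraries, and 24.7%, 25.4% and 25.1% in lactate libraries. SREBF2 FPKM was 1.89 ± 0.123 times that of SREBF1 in untreated and 2.99 ± 0.0536 times in lactate cells. The sum itself went from 31.9 ± 1.16 to 23.8 ± 0.753 FPKM.

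**Figure D1:**
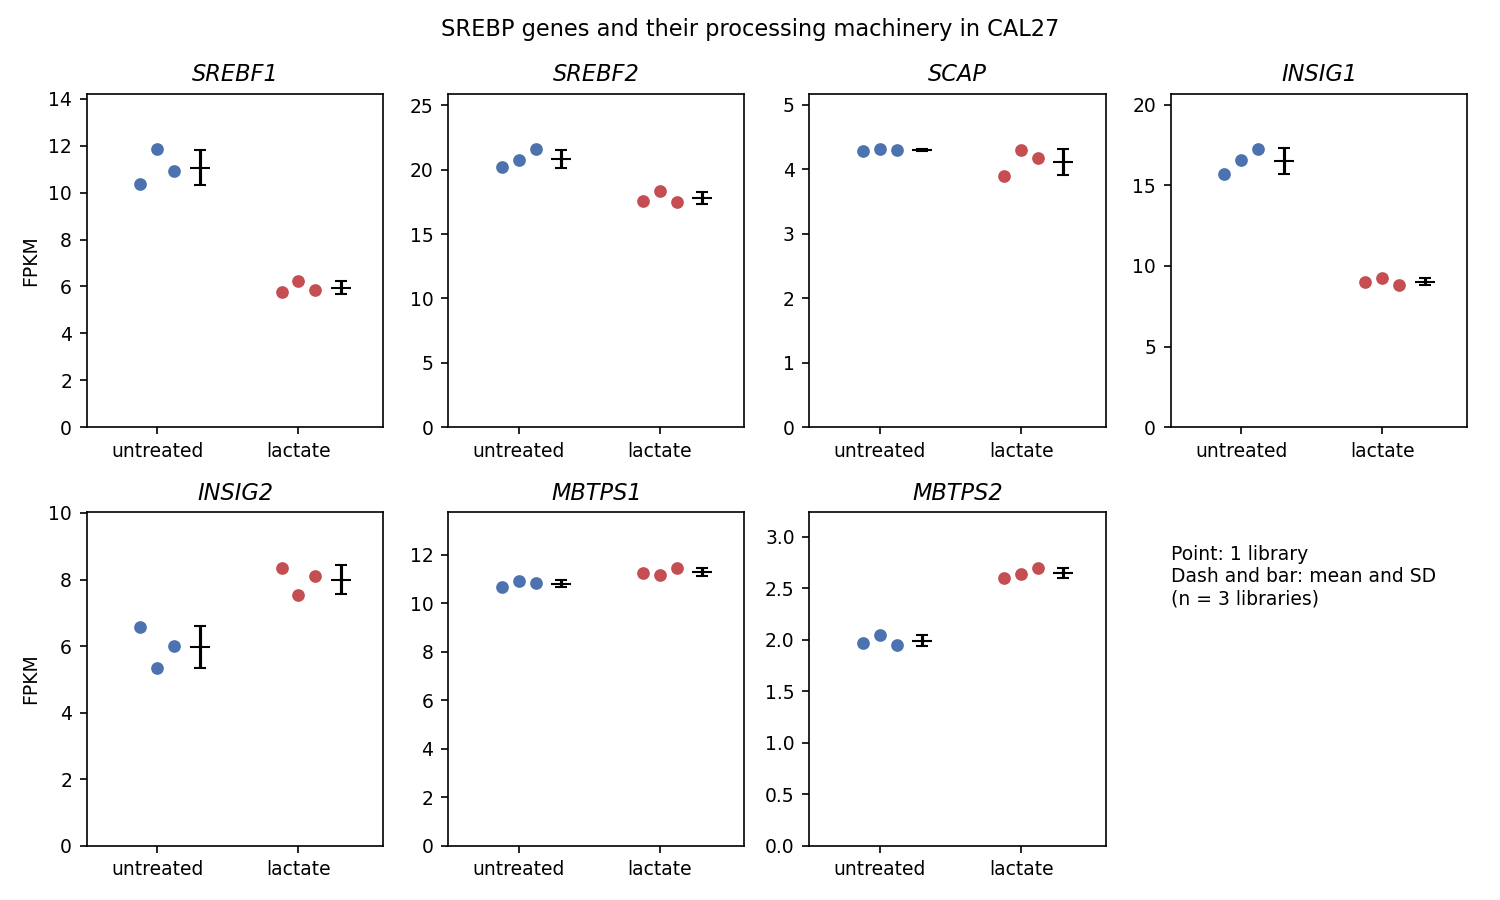
FPKM (y axes, each from 0) of the 7 genes in 3 untreated (blue) and 3 lactate (red) libraries, with mean and SD beside the points. SREBF1 and INSIG1 show the widest separation, at 11.1 against 5.96 and 16.5 against 9.03 FPKM, and INSIG2 and MBTPS2 lie higher in lactate. The SCAP groups overlap.

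The INSIG paralogs, ER membrane proteins that both retain SCAP, differed in opposite directions. INSIG1 (ENSG00000186480, chromosome 7, 155297776 to 155310235, plus strand) stood at 15.7, 16.6 and 17.2 FPKM in untreated and at 9.0, 9.28 and 8.82 FPKM in lactate libraries. No lactate library came near an untreated one, and single ratios ran from 0.512 to 0.592. The means were 16.5 ± 0.787 and 9.03 ± 0.231 FPKM, a drop of 45.3%, with a log2 fold change of -0.80 (SE 0.039).

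INSIG2 (ENSG00000125629, chromosome 2, 118088452 to 118110997, plus strand) encodes the form that is not a direct SREBP target in most cells. It stood at 6.58, 5.34 and 5.999 FPKM in untreated and at 8.36, 7.54 and 8.11 FPKM in lactate libraries. All lactate libraries were higher, although replicate 2 was the lowest of its group on both sides and single ratios ran from 1.15 to 1.56. The means were 5.97 ± 0.618 and 8.0 ± 0.421 FPKM, a change of 33.9%, with a log2 fold change of 0.37 (SE 0.068).

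Within each library the balance of the INSIG pair moved with the groups. INSIG2 made up 29.6%, 24.3% and 25.8% of summed INSIG FPKM in untreated libraries and 48.1%, 44.8% and 47.9% in lactate libraries. INSIG1 FPKM was thus 2.79 ± 0.370 times that of INSIG2 in untreated cells and 1.13 ± 0.0862 times in lactate. The lowest INSIG1 value in lactate, 8.82 FPKM, still lay above the highest INSIG2 value there, 8.36 FPKM. Summed INSIG FPKM went from 22.5 ± 0.678 to 17.0 ± 0.286, so the INSIG2 difference of 2.03 FPKM was smaller than the INSIG1 drop of 7.48 FPKM.

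The ratio of INSIG1 to SREBF1 overlapped between the groups. INSIG1 over SREBF1 was 1.51, 1.40 and 1.58 in untreated and 1.56, 1.48 and 1.51 in lactate libraries. Likeness to the other tested genes was measured as the root mean square difference, over the 6 libraries, of log2(FPKM + 1) centred on the untreated mean. By that measure INSIG1 and SREBF1 were each other's nearest gene, at 0.050. Outside the 7 genes, the nearest to INSIG1 were the snoRNA gene SNORA2B (0.051), JADE2 (0.082) and the follistatin gene FST (0.090). Those nearest to SREBF1 were SNORA2B (0.072), the cold-inducible RNA-binding protein gene RBM3 (0.082) and JADE2 (0.085). SNORA2B was low, at 1.75 ± 0.213 FPKM in untreated and 0.561 ± 0.0981 in lactate cells, so its likeness depends on the 1 FPKM added before the logarithm. JADE2 went from 10.8 ± 0.198 to 5.46 ± 0.295 FPKM. With 3 libraries against 3, likeness here mostly reflects a fold change of similar size.

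SCAP (ENSG00000114650, chromosome 3, 47413694 to 47477126, minus strand), the escort that both SREBPs need, stood at 4.28, 4.31 and 4.30 FPKM in untreated and at 3.89, 4.29 and 4.17 FPKM in lactate libraries. The groups overlapped, since lactate replicate 2 lay above untreated replicate 1. The means were 4.30 ± 0.0168 and 4.12 ± 0.202 FPKM and the log2 fold change was -0.051 (SE 0.038). That gene did not pass in the fit, which does not show that its level was the same.

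Set against SCAP, the summed FPKM of each pair of partner genes was lower in lactate. By itself INSIG2 was higher, at 5.97 FPKM in untreated and 8.0 FPKM in lactate, where SCAP was 4.30 and 4.12 FPKM. The summed SREBF FPKM was 7.42 ± 0.242 times that of SCAP in untreated and 5.78 ± 0.195 times in lactate libraries. The summed INSIG FPKM was 5.23 ± 0.157 times that of SCAP in untreated and 4.15 ± 0.278 times in lactate libraries, with ranges of 5.09 to 5.40 and 3.92 to 4.46 that do not overlap. The GC dependence was not taken out of these ratios.

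**Figure D2:**
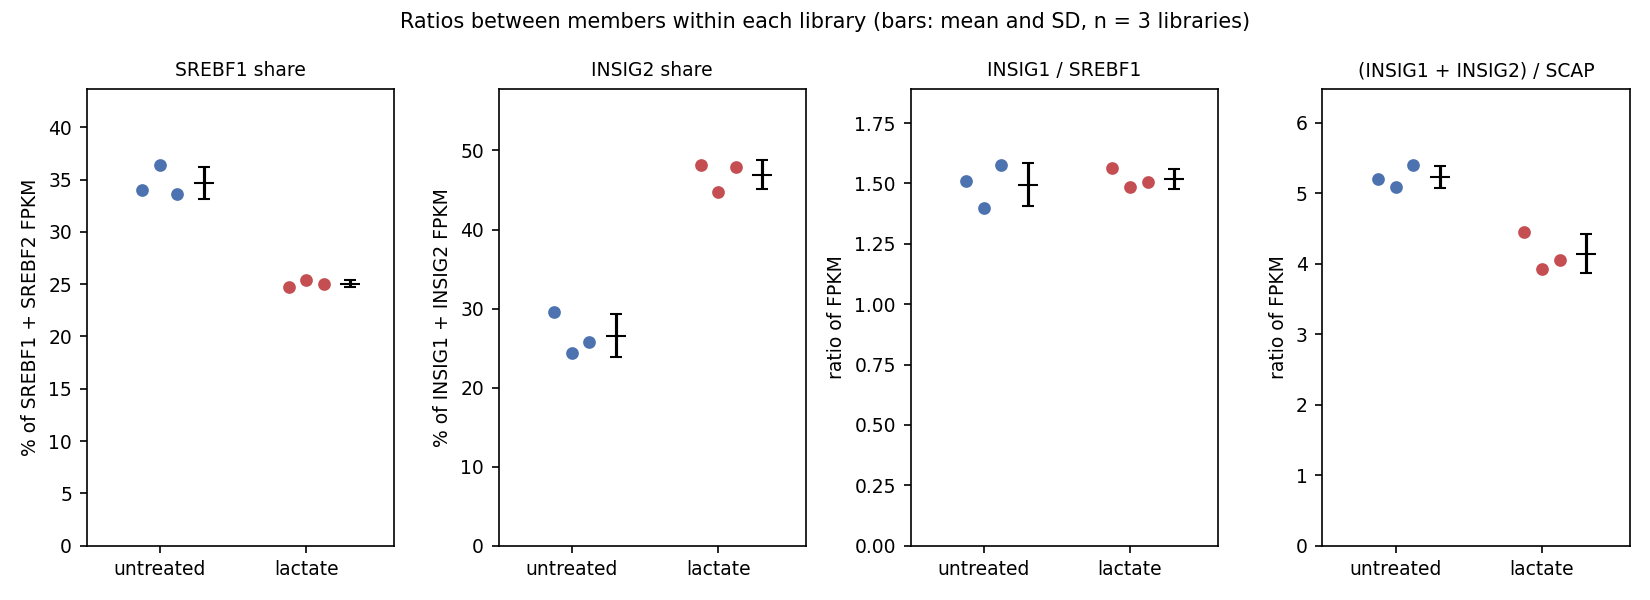
Ratios and shares of FPKM between members within each library (y axes from 0), for 3 untreated (blue) and 3 lactate (red) libraries, with mean and SD. The SREBF1 share is 34.7% against 25.1% and the INSIG2 share 26.6% against 47.0%, while INSIG1 over SREBF1 overlaps between groups.

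The genes of the proteases that cut SREBPs were both at higher levels in lactate. MBTPS1 (ENSG00000140943, chromosome 16, 84053761 to 84116906, minus strand) encodes site-1 protease, a serine protease of the Golgi. It stood at 10.7, 10.9 and 10.8 FPKM in untreated and at 11.2, 11.2 and 11.5 FPKM in lactate libraries. The groups did not overlap, yet the step from 10.8 ± 0.124 to 11.3 ± 0.157 FPKM was small, with a log2 fold change of 0.058 (SE 0.026), and the gene did not pass in the fit. It passed in 3 of 16 other settings: with quantile normalization (0.081), with the GC and length trend removed (0.067) and with read totals (0.12).

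MBTPS2 (ENSG00000012174, chromosome X, 21839636 to 21885424, plus strand), the gene of the intramembrane metalloprotease that makes the final cut, had the lowest FPKM of the 7. It stood at 1.97, 2.05 and 1.95 FPKM in untreated and at 2.60, 2.63 and 2.70 FPKM in lactate libraries. Every lactate library was higher, with single ratios of 1.27 to 1.39. The means were 1.99 ± 0.0525 and 2.64 ± 0.0502 FPKM, a change of 32.9%, with a log2 fold change of 0.29 (SE 0.037). Because this gene is low, the added 1 FPKM shrinks that value, and on recovered reads with voom it was 0.42 (SE 0.058). Exons of YY2, an intronless gene on the same strand, overlap it by 1093 nt, and YY2 was listed at 0.488 to 0.633 FPKM. MBTPS1 FPKM was 5.43 ± 0.115 times that of MBTPS2 in untreated and 4.27 ± 0.0466 times in lactate cells. Once the GC and length dependence was taken out, the log2 fold changes of the pair were close, at 0.067 (SE 0.023) for MBTPS1 and 0.088 (SE 0.036) for MBTPS2, so the difference in this ratio rests on values that still carry this dependence.

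Fold change followed the GC content of genes in these libraries, and the 7 genes span a wide range of it, from 35.4% and 35.9% GC in the longest transcripts of INSIG2 and MBTPS2 to 62.8% and 62.3% in those of SREBF1 and SCAP. The 750 tested protein-coding genes within 2 percentage points of MBTPS2 had a median log2 fold change of 0.15, and the 627 around INSIG2 one of 0.15 as well. Around SREBF1 the median was -0.093 over 817 genes, and around INSIG1, at 46.0% GC, it was 0.018 over 1497 genes. Around SREBF2, at 57.1% GC, it was -0.13 over 1174 genes, beside its own -0.22. With the dependence on GC content and length taken out of each library, MBTPS2 stood at 0.088 (SE 0.036) and no longer passed, while INSIG2 stood at 0.24 (SE 0.057) and passed. SREBF1 (-0.77), INSIG1 (-0.80) and SREBF2 (-0.17) moved little under the same removal.

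**Figure D3:**
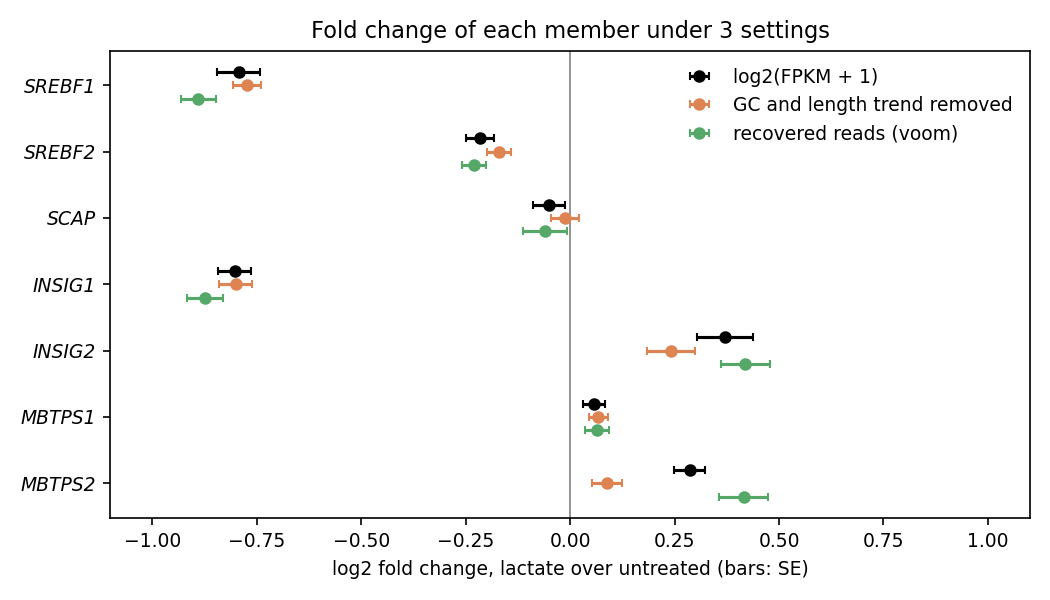
Log2 fold change, lactate over untreated (x axis), with its SE for the 7 genes on log2(FPKM + 1) (black), with the GC and length trend removed (orange) and by voom on recovered reads (green). MBTPS2 ranges from 0.088 to 0.42 over these settings, and SREBF1 and INSIG1 stay at or below -0.77.

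Among all 11792 tested genes ordered by fold change, INSIG1 was at place 13 and SREBF1 at place 15 from the lowest. SREBF2 was at place 2128 from the lowest, in a region where many genes lie. From the highest, INSIG2 was at place 437 and MBTPS2 at place 1046. These places describe the choice of the genes and are no test of it.

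The order of the levels changed between the groups. In untreated cells it ran from SREBF2 through INSIG1, SREBF1, MBTPS1, INSIG2 and SCAP to MBTPS2, and among neighbours only SREBF1 and MBTPS1 overlapped over their libraries. In lactate it ran from SREBF2 through MBTPS1, INSIG1, INSIG2, SREBF1 and SCAP to MBTPS2, with no overlap between neighbours. SREBF1 thus stood above INSIG2 in untreated cells and below it in lactate. The GC dependence was not taken out of these levels.

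Replicates of some of the genes varied more than counting of reads gives. The coefficient of variation (CV) of INSIG2 over untreated libraries was 10.4%, where its 531 to 789 reads give 3.88% from counting. For SREBF1 it was 6.76% against 1.96%, for INSIG1 4.77% against 2.42% and for SREBF2 3.43% against 1.49%. SCAP at 0.390%, MBTPS1 at 1.15% and MBTPS2 at 2.64% lay below their counting values of 3.60%, 1.78% and 4.43%. Over 7948 tested genes with a mean of at least 500 reads the median CV was 2.89% in untreated and 2.76% in lactate libraries. In lactate the CV was 5.26% for INSIG2 (3.04% from counting), 4.42% for SREBF1 (2.44%), 2.77% for SREBF2 (1.47%) and 4.92% for SCAP (3.36%), so the small spread of SCAP in untreated libraries did not recur. INSIG1 at 2.56%, MBTPS1 at 1.39% and MBTPS2 at 1.90% lay below their counting values of 2.97%, 1.59% and 3.52%.

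Other genes of the pathway were taken from 6 lists written from general knowledge, with the earlier results of these data known, and each count is beside the 58.6% of all tested genes that passed. Of 23 genes of sterol synthesis and uptake, the usual targets of SREBP-2, 16 fell and 1 rose (median log2 fold change -0.30). DHCR7, the gene of an enzyme at the end of a route to cholesterol, fell from 27.8 ± 0.227 to 18.8 ± 0.403 FPKM (limma adjusted p = 1.20e-05), and ACAT2 fell too (log2 fold change -0.38). Of 14 genes of fatty acid synthesis, the usual targets of SREBP-1, 9 fell and 3 rose (median -0.15), against 6 and 4 with read totals (-0.10) and 7 and 1 once the GC and length trend was removed (-0.11). SCD (-1.03), FASN (-0.47) and ACLY (-0.19) fell and ME1 rose (0.30).

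Genes that act on the machinery itself were mixed or higher. In a list of 14 tested genes of ER degradation of INSIG and of SREBP phosphorylation and turnover, 5 fell and 3 rose (median -0.044). This balance depended on the setting: 2 fell and 5 rose with read totals (median 0.023), 2 fell and 4 rose after quantile normalization (0.012), and 4 fell and 1 rose once the GC and length trend was removed (-0.016). The ubiquitin ligase gene RNF145 rose from 12.9 ± 0.425 to 16.6 ± 0.235 FPKM (limma adjusted p = 9.49e-05) and SEL1L rose too (0.25), while UBE2G2 (-0.28) and VCP (-0.14) fell. RNF139, the gene of another ER ubiquitin ligase, was named for its role after its values were seen and did not pass (0.055). Among 14 genes of COPII transport, SCAP trafficking and the chaperone HSP90, 9 rose and 3 fell (median 0.18). SEC24A (0.46), SEC23A (0.43), SEC24D (0.35) and HSP90AA1 (0.38) rose. The 3 that fell, named after their values were seen, were HSP90AB1 (-0.17), SEC23B (-0.15) and SEC13 (-0.13). HSP90AB1 (1081 to 960.5 FPKM) stood above HSP90AA1 (334 to 434 FPKM). SEC23B (45.6 to 41.1 FPKM) likewise stood above SEC23A (8.29 to 11.5 FPKM). With the GC and length trend removed, 6 of these 14 rose and 2 fell (median 0.041).

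Of 6 tested genes for other proteins cut by site-1 protease, site-2 protease or both, 3 rose and 3 fell. CREB3 (-0.35) and ATF6B (-0.19) fell, and GNPTAB (0.36) and CREB3L2 (0.31) rose; with the GC and length trend removed 2 rose and 1 fell. Of 15 genes for transcription factors and coactivators that work with SREBPs or act on SREBF1, 4 rose and 5 fell (median -0.046). NFYC (-0.35), USF2 (-0.27), RXRB (-0.29) and USF1 (-0.18) fell. The 4 that rose, named after their values were seen, were SIRT1 (0.23), SP3 (0.20), EP300 (0.15) and NFYA (0.12). With read totals 5 rose and 4 fell (median 0.017), and with the GC and length trend removed 3 rose and 4 fell (-0.033). NR1H3, the gene of the LXR alpha receptor that drives SREBF1 in many tissues, was named after its values were seen and went from 1.87 ± 0.0556 to 1.92 ± 0.167 FPKM without passing.

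**Figure D4:**
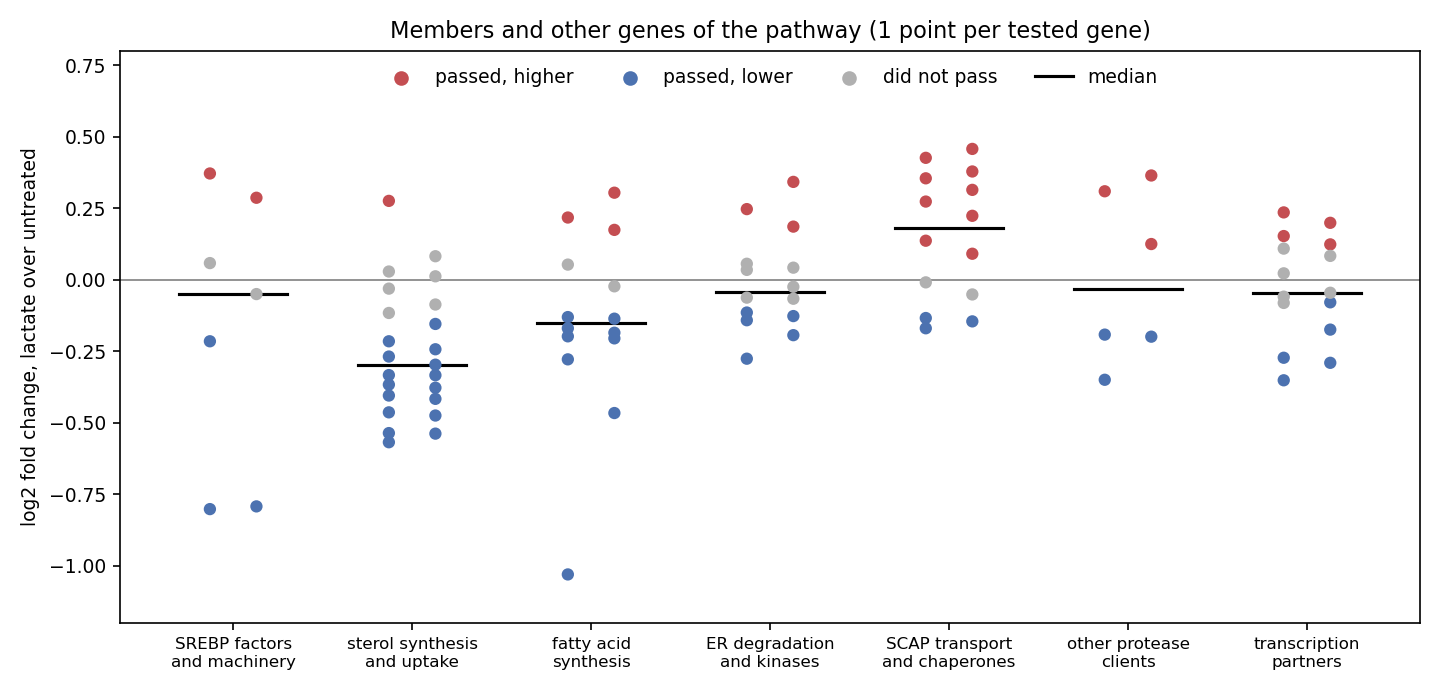
Log2 fold change, lactate over untreated (y axis), of each tested gene in the 7-gene group and in 6 lists of pathway genes (x axis), coloured by call, with the median as a black line. The sterol list lies lowest (median -0.30) and the SCAP transport list highest (0.18), and the 7 genes spread from -0.80 to 0.37.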

How the data were processed

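Poly-A RNA of 6 CAL27 libraries was sequenced, 3 untreated and 3 in lactate, grouped by the treatment in the labels. The submitters' processing notes name the build hg38 and the programs featureCounts 1.5.0-p3, StringTie 1.3.3b, HISAT2 2.0.5 and fastp. The role of each, the annotation and strand use are not given in the sources used. The authors deposited FPKM for 31368 genes. Low values were whole multiples of 1 step per library and gene, so whole reads were recovered to within 0.003 reads for 99.99% of genes. The denominators followed median-ratio size factors of those reads with a CV of 0.0012%, so the values appear already scaled between libraries.

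Genes reaching 1 FPKM in 3 or more libraries were tested with limma 3.58.1 (R 4.3.3, trended and robust variance) on log2(FPKM + 1), with group as the only term and Benjamini-Hochberg adjustment over all 11792. On simulated libraries with 11644 genes tested, 93.8% of 48 genes changed 2-fold and 43.8% of 48 changed 1.2-fold were found. Few genes were changed there and all had the same spread, whereas 58.6% of genes passed in the data. These rates therefore do not carry over to the fit of the data. The 7 genes, the lists, the motifs and the alternatives were chosen with earlier results of these data known. Named genes were all 7, tested genes with overlapping exons, up to 4 genes of each list with the smallest p, and the 3 most alike to each of the pair with the largest changes. Some genes that this rule names are not reported here. Coordinates, lengths and GC content are from GENCODE 29, and promoters from RefSeq on GRCh38.p14, which held all 7. No explanation was tested. Alternatives were other normalizations, filters, a pseudocount of 0.1, no variance trend, the replicate number as a block, removal of the GC and length trend, read totals, voom, and leaving out each library.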

Additional observations from a re-analysis of the deposited data

How the results depend on the processing

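The 16 alternatives kept the direction and call of SREBF1, SREBF2, INSIG1 and INSIG2. SREBF1 ranged from -0.89 to -0.73 in log2 fold change, INSIG1 from -0.87 to -0.74, SREBF2 from -0.24 to -0.15 and INSIG2 from 0.24 to 0.43. With each library left out in turn, SREBF1 was -0.83 to -0.75, INSIG1 -0.84 to -0.77, SREBF2 -0.24 to -0.19, INSIG2 0.30 to 0.43 and MBTPS2 0.28 to 0.30. Taking out the trend on GC and length brought MBTPS2 below the threshold (0.088). MBTPS1 passed there (0.067), after quantile normalization (0.081) and with read totals (0.12). SCAP passed in none, and its sign changed with read totals (0.0059). A filter at 5 FPKM left out SCAP and MBTPS2 and tested 6448 genes, and then 1786 genes rose, 1 of the 7 rose and 12 pathway genes rose. Removal of the trend left 14 pathway genes that rose. The cause was not tested where the number of genes does not give it.

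Same-numbered libraries of the 2 groups showed little shared deviation (r of 0.053, 0.067 and -0.004 over genes). Untreated replicate 3 correlated best with another number. Such small correlations over 3 libraries per group cannot exclude a pairing by number. With the replicate number as a block, 3257 genes rose and 3782 fell, and 2 of the 7 rose and 3 fell. The block lowered the SE of SREBF1 from 0.051 to 0.030 and of INSIG2 from 0.068 to 0.035. For MBTPS2 the SE went from 0.037 to 0.041. The 1 FPKM added before the logarithm limits the fold changes of low genes such as MBTPS2.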
